A study of Hordeum vulgare with 24 samples.

Results

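HvMADS6 is the barley gene of the AGL6 group of MADS-box transcription factors, followed here under the identifier HORVU6Hr1G066140 in the young spikes of plants mutant for HvMADS1 and of wild-type plants. It is 1 of 39734 gene identifiers counted by RNA sequencing, of which 27383 had at least 1 read. The gene was chosen from its levels at the earlier of the 2 stages sampled, where it was high in cool-grown wild type and low in the other groups. The same rule was then applied to all genes: a mean in cool wild type at least 4 times that of each of the other 3 groups of that stage, and at least 1 CPM (counts scaled by library size). It found HvMADS6 and 10 more genes among the 16064 genes at that level, or 0.0685%. Since these values chose the genes, they are given as a description, with no test. Tests were made only on the later stage, whose libraries the rule did not use.

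MADS-box proteins bind DNA as dimers and join into larger complexes, and the combination present in a cell sets which floral organ or meristem is made. The AGL6 group is the closest relative of the SEPALLATA group, to which HvMADS1 belongs. In rice, OsMADS6 acts in floral organ identity and in ending the growth of the floral meristem, and its protein binds that of OsMADS1.

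The 8 groups combined genotype, temperature and stage, all in cultivar Golden Promise under a 16 h photoperiod. Plants mutant for HvMADS1 (mads1; the labels do not name the allele or say whether it is 1 line) were set against wild type (WT). High temperature (HT) was 25 °C by day and 20 °C by night, and low temperature (LT) was 15 °C by day and 10 °C by night. Inflorescences were taken at W3.5 and W2.5 of the Waddington scale of spike development, the stamen primordium and glume primordium stages. Each group held 3 libraries, labelled as biological replicates, each from RNA of 15 to 20 pooled spikes. The study asked how HvMADS1 acts on spike development at raised temperature.

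Library totals ran from 13283533 to 19864259 counted reads, and levels below are CPM after TMM scaling, a correction for the make-up of each library. The third WT HT W2.5 library stood apart: its scaling factor was 0.575, against 0.959 to 1.08 in the other 23, and it is left out of means unless named. HvMADS1 itself, as a check of the labels, read 0, 0.341 and 13.6 CPM in mads1 HT W3.5, against 61.5, 63.8 and 66.9 CPM in WT HT W3.5, and fell by 3.83 on the log2 scale (edgeR adjusted p = 0.00552). In mads1 LT W3.5 it read 43.6, 45.9 and 49.5 CPM, against 57.0, 63.6 and 63.2 CPM in WT LT W3.5 (log2 change -0.37, edgeR adjusted p = 0.738; 0.0465 without the third mads1 HT W3.5 library). At W2.5 HvMADS1 averaged 17.9 CPM in mads1 LT, against 41.3 CPM in WT LT. In HT at W2.5 it averaged 10.8 CPM in mads1, against 8.55 CPM in WT, with overlapping libraries. The transcript was thus still counted in mads1, and its level did not separate the genotypes in HT at W2.5. The third mads1 HT W3.5 library had more of it than the other libraries of its group. As a look at the labelled tissue, the APETALA1/FRUITFULL group genes HvMADS14, HvMADS15 and HvMADS18 averaged 24.1 to 453 CPM in the 8 groups. The floral organ genes HvMADS3, HvMADS58 and HvMADS16 averaged 3.08 to 26.3 CPM in the groups at W3.5. At W2.5 they were low, at 0.0296 to 2.46 CPM. These levels do not by themselves establish the tissue.

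At W3.5 HvMADS6 was counted at 13.9 CPM or more in all 12 libraries. The 3 libraries of mads1 HT held 14.3, 15.1 and 13.9 CPM (213, 265 and 196 reads), and those of WT HT held 24.5, 22.0 and 26.0 CPM (408, 348 and 462 reads). The 3 libraries of mads1 LT held 28.2, 31.2 and 33.8 CPM (496, 501 and 545 reads), and those of WT LT held 34.5, 36.0 and 32.2 CPM (650, 620 and 664 reads). Every HT library lay below every LT library, and within HT every mads1 library lay below every WT library. In the bulk of a spike, fewer cells with the transcript and less of it per cell cannot be told apart.

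At W2.5 the picture was 1 group against 3. The mads1 HT libraries held 0.312, 0.826 and 0 CPM (5, 14 and 0 reads), the mads1 LT libraries 0.492, 0.866 and 0.306 CPM (8, 15 and 5 reads). The WT HT libraries held 0.118 and 0.0748 CPM (2 and 1 reads), and the library left out held 0.574 CPM (5 reads). The WT LT libraries held 9.79, 14.5 and 5.72 CPM (200, 216 and 109 reads). The lowest cool wild-type library was thus above the highest of all others, the left-out one included. A count of 0 in a library of the depth of the third mads1 HT library allows up to 0.193 CPM, by counting error alone.

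**Figure D1:**
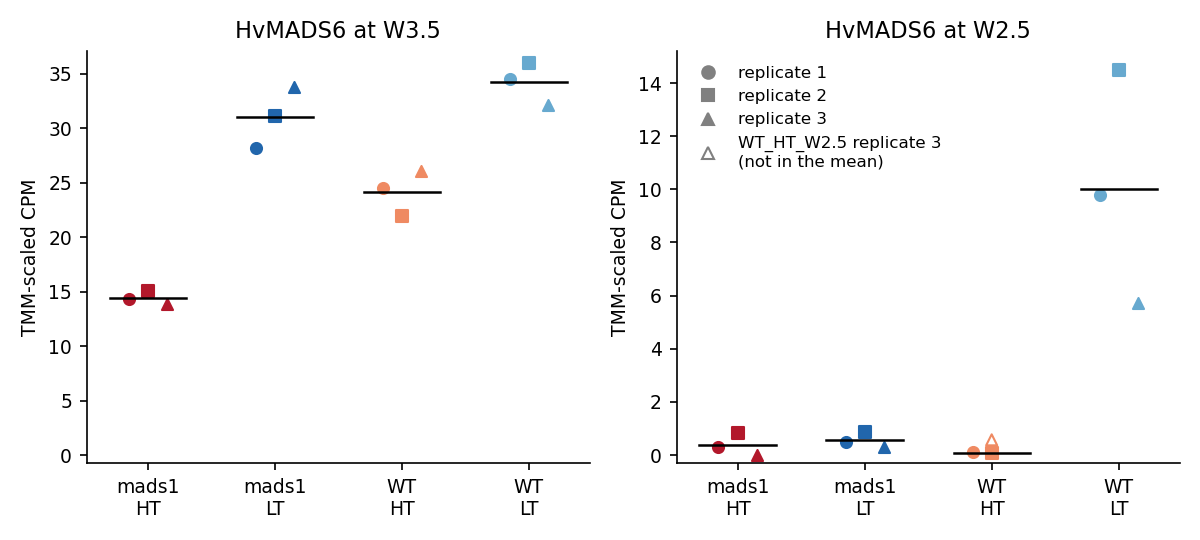
HvMADS6 in each library as TMM-scaled CPM (vertical axes; each panel has its own scale), at W3.5 on the left and W2.5 on the right, by genotype and temperature; bars are group means and marker shapes replicates. At W3.5 the libraries run from 13.9 CPM in mads1 HT to 36.0 CPM in WT LT, while at W2.5 the WT LT libraries at 5.72 to 14.5 CPM stand above all others.

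In group means the order over the 8 groups ran from WT LT W3.5 downwards. WT LT W3.5 averaged 34.2 ± 1.95 CPM (SD, n = 3, as for all groups but one), and mads1 LT W3.5 followed at 31.1 ± 2.84 CPM, with overlapping libraries. WT HT W3.5 came next at 24.2 ± 2.06 CPM, and mads1 HT W3.5 after it at 14.4 ± 0.602 CPM, each step without overlap. WT LT W2.5, at 10.0 ± 4.39 CPM, followed, and its highest library overlapped the range of mads1 HT W3.5. The last places were mads1 LT W2.5 at 0.555 ± 0.285 CPM, mads1 HT W2.5 at 0.379 ± 0.417 CPM and WT HT W2.5 at 0.0966 ± 0.0308 CPM (n = 2), and these neighbours overlapped.

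Per transcript length, which allows genes to be compared, HvMADS6 was set beside the other MADS-box genes listed, not the whole family. Its mean was 18.2 FPKM in mads1 HT W3.5, 40.1 in mads1 LT W3.5, 31.7 in WT HT W3.5 and 46.0 in WT LT W3.5. It was 0.483 FPKM in mads1 HT W2.5, 0.709 in mads1 LT W2.5, 0.126 in WT HT W2.5 and 13.01 in WT LT W2.5. Among the 13 MADS-box genes listed, HvMADS6 ranked 7 by mean FPKM in mads1 HT W3.5, 8 in the other 3 groups at W3.5 and 8 in WT LT W2.5. It ranked 9 in mads1 LT W2.5 and 10 in both HT groups at W2.5. HvMADS14, the barley VRN1 gene of the flowering switch, was first in all 8 groups.

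The W2.5 ratios that chose the gene run with cool wild type on top. The mean of WT LT was 18.0 times that of mads1 LT, 26.4 times that of mads1 HT and 104 times that of WT HT. From the pooled reads these ratios were 17.2 (95% counting interval 11.8 to 26.2), 24.5 (15.5 to 41.1) and 97.4 (33.1 to 474). The last rests on 3 reads in the warm wild-type libraries, and it was 39.1 with the left-out library included. Without the second mads1 HT library, which held 14 of the 19 reads of its group, the ratio to mads1 HT was 64.0. Counting intervals, here and below, cover counting error only and not the spread between libraries.

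The difference between stages, W3.5 over W2.5, was likewise a description, since W2.5 chose the gene. It was 38.0-fold in mads1 HT, 56.0-fold in mads1 LT, 250-fold in WT HT and 3.42-fold in WT LT. The pooled counting interval was 23.3 to 61.4 in mads1 HT, 38.1 to 83.4 in mads1 LT, 83.5 to 1188 in WT HT and 3.21 to 3.90 in WT LT. These intervals leave out the spread between libraries, which ran from 5.72 to 14.5 CPM in WT LT W2.5. Cool wild type had the smallest step between the stages, which the choice of a gene high in WT LT W2.5 favours. The other 3 settings reached their W3.5 levels from under 1 CPM.

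Warm growth was tested at W3.5 in each genotype, over 17929 genes. HvMADS6 fell in mads1, by 1.12 log2 units (SE 0.10; edgeR quasi-likelihood test, Benjamini-Hochberg adjusted p = 2.66e-06; mean 14.4 CPM in HT, 31.1 CPM in LT). All 3 HT libraries were below all 3 LT libraries. Of all genes, 53.1% were called in the same comparison. In WT the gene fell by 0.49 (SE 0.10; adjusted p = 0.00355 by the same edgeR test; mean 24.2 CPM in HT, 34.2 CPM in LT), where 23.8% of genes were called.

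The mutation was tested at W3.5 at each temperature. In HT, HvMADS6 fell in mads1 by 0.74 log2 units (edgeR adjusted p = 5.83e-04; SE 0.10; mean 14.4 CPM in mads1, 24.2 CPM in WT), in a comparison that called 20.4% of genes. In LT the log2 difference was -0.10 (SE 0.10; 95% interval -0.33 to 0.12; edgeR adjusted p = 0.514; mean 31.1 CPM in mads1, 34.2 CPM in WT), where 12.1% of genes were called. The interval leaves room for a loss smaller than that found in HT. The difference between the 2 effects, the genotype by temperature term, was -0.63 (SE 0.14; edgeR adjusted p = 0.0135), a term called for 11.7% of genes.

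Leaving out any 1 of the 12 libraries kept every one of these HvMADS6 calls, with adjusted p at most 0.0427 (edgeR). The third mads1 HT library, which stood apart in HvMADS1, held 13.9 CPM of HvMADS6, within the span of its group. Without it the change in HT between mads1 and WT was -0.71. Fits that took in the W2.5 libraries as well gave like changes with wider errors, and 3 calls were lost. With 23 libraries the WT temperature effect was -0.50 (SE 0.25; edgeR adjusted p = 0.152) and the genotype by temperature term -0.61 (SE 0.35; adjusted p = 0.281). With all 24 the mads1 effect in HT was -0.73 (SE 0.40; edgeR adjusted p = 0.397), and the other calls lost were those at adjusted p = 0.63 for WT temperature and 0.851 for the genotype by temperature term.

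**Figure D2:**
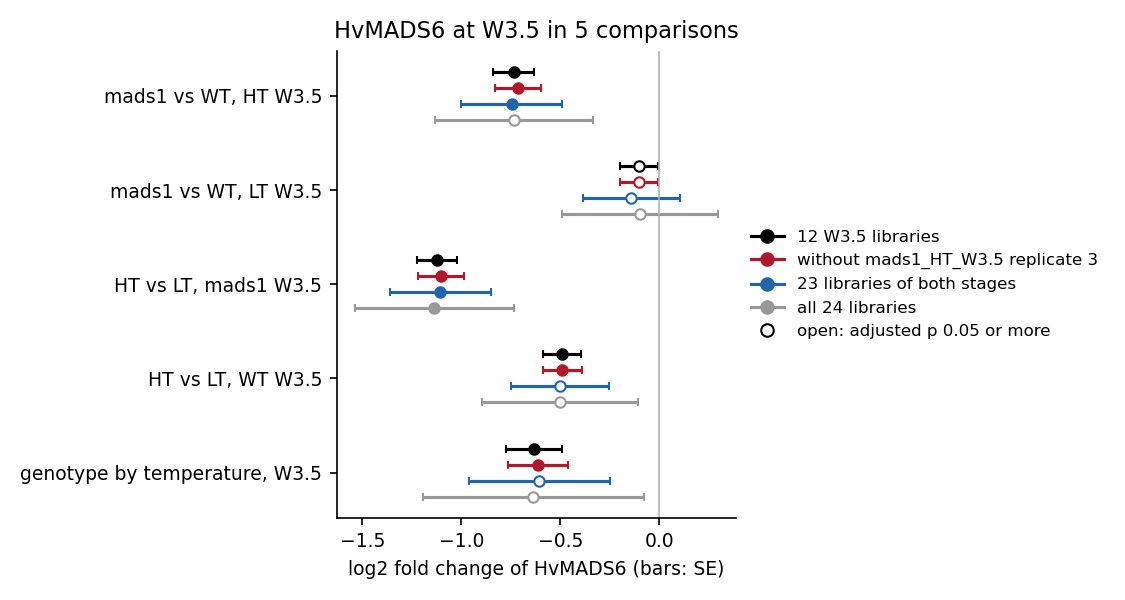
Log2 fold change of HvMADS6 at W3.5 (horizontal axis, bars are standard errors) in the 5 comparisons, from the 12 W3.5 libraries and from 3 other sets of libraries; filled points have an adjusted p under 0.05. The points of a comparison lie close together, from -0.71 to -0.75 for mads1 against WT in HT, while the bars widen as W2.5 libraries are added.

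The W2.5 rule left 10 genes beside HvMADS6. Only HvMADS7 and HvMADS8 among them are in the MADS-box list, as SEPALLATA group genes, which act with the organ identity genes in all floral organs. No name or role is paired with the other 8 in the sources used here. By the ratio of cool wild type to the highest other group they ran from HORVU2Hr1G083490 at 25.3 and HORVU4Hr1G006100 at 18.3 to HORVU5Hr1G071590 at 4.27. Just inside the threshold with it was HORVU3Hr1G077360 at 4.37, and just outside were HORVU1Hr1G074330 at 3.42 and HORVU6Hr1G008640 at 3.34. HvMADS6 was the most abundant of the list in WT LT W2.5, at 13.01 FPKM. The others ran from 0.956 FPKM for HORVU3Hr1G029470 to 4.13 FPKM for HORVU4Hr1G006100.

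HvMADS8 read 0, 0.413 and 0 CPM in mads1 HT W2.5, 0.0615, 0.231 and 0 CPM in mads1 LT W2.5, and 0 and 0.0748 CPM in WT HT W2.5, against 1.32, 3.62 and 0.525 CPM in WT LT W2.5. Each cool wild-type library was above all others. HvMADS7 read 0.125, 0.531 and 0.0653 CPM in mads1 HT W2.5 and had no read in mads1 LT or WT HT W2.5, against 0.734, 3.02 and 0.210 CPM in WT LT W2.5. Its cool wild-type mean was at least 22.0-fold higher than mads1 LT and at least 13.3-fold higher than WT HT (floor of 3 counts over the group), but replicate 3 of WT LT lay within the mads1 HT range. HORVU3Hr1G077360 read 0.562, 0.354 and 0.718 CPM in mads1 HT W2.5, 0.738, 0.981 and 0.795 CPM in mads1 LT W2.5, and 0.828 and 0.748 CPM in WT HT W2.5, against 3.23, 5.77 and 1.99 CPM in WT LT W2.5. It was separated in every library.

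The cool wild-type libraries did not rank the 11 genes alike. The second library was the highest for HvMADS6 and for 5 of the 10 others, and the lowest for 4: HORVU4Hr1G006100, HORVU0Hr1G022690, HORVU2Hr1G083490 and HORVU3Hr1G029470. HORVU4Hr1G006100, for example, read 6.32, 0.335 and 3.62 CPM in these libraries, and HORVU0Hr1G022690 read 4.46, 0.335 and 3.78 CPM. HvMADS7, HvMADS8, HORVU3Hr1G077360 and HORVU5Hr1G071590 had the same order of libraries as HvMADS6. In 6 of the 10 every cool wild-type library was above all other W2.5 libraries, with the left-out one not counted, as in 1.79% of the 16064 genes; the 10 were chosen for a like excess, so nothing is read from that count. The second library was also the highest for 11 of the 12 MADS-box genes listed besides HvMADS6, against 40.4% of the 16064 genes; its part in the W2.5 pattern was not tested. Without it the rule found 8 genes and lost HvMADS7, HvMADS8, HORVU3Hr1G077360, HORVU4Hr1G080880 and HORVU5Hr1G071590. HvMADS6 was kept in all 18 alternative forms of the rule, but it was chosen from these levels, so nothing is read from that.

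The left-out WT HT W2.5 library mattered for 1 gene. HORVU5Hr1G071590 read 9.18 CPM in it, against 0.296 and 0.449 CPM in the other two libraries of its group, and it leaves the list when that library is counted.

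**Figure D3:**
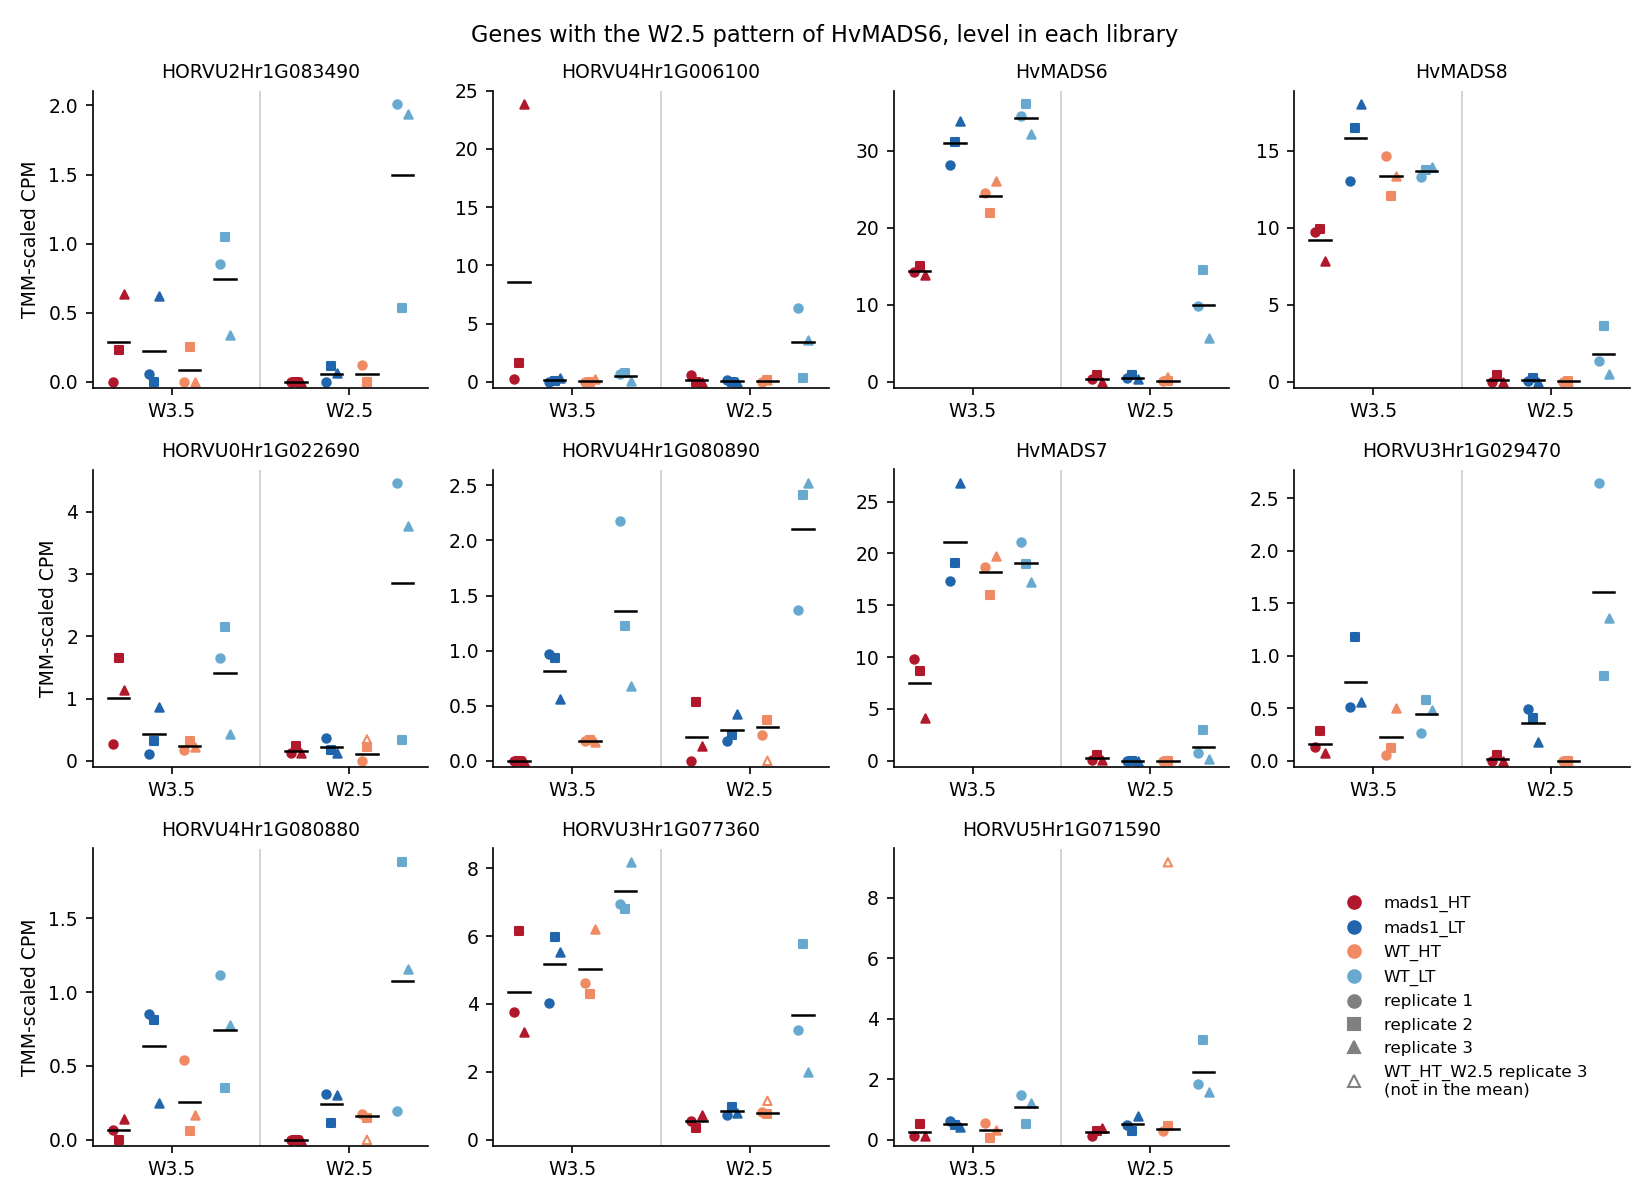
Level in each library, as TMM-scaled CPM on a vertical axis of its own for each gene, for HvMADS6 and the 10 genes that share its W2.5 pattern; colours are genotype and temperature, shapes replicates and bars group means. At W2.5 the WT LT mean is the highest in every panel, as the rule required, while at W3.5 HvMADS6, HvMADS7, HvMADS8 and HORVU3Hr1G077360 are counted in all 12 libraries of all 4 groups at 3.18 CPM or more.

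At W3.5 the 11 genes parted. HvMADS7, HvMADS8 and HORVU3Hr1G077360 were, like HvMADS6, higher in mean at W3.5 than at W2.5 in all 4 settings, as were 10.8% of the 16064 genes. Outside WT LT the rule itself asked for low W2.5 means, which favours a rise there. Nothing is therefore read from that share. HvMADS7 averaged 7.52, 21.1, 18.2 and 19.1 CPM in mads1 HT, mads1 LT, WT HT and WT LT, and HvMADS8 averaged 9.18, 15.8, 13.4 and 13.7 CPM. HORVU3Hr1G077360 averaged 4.36, 5.18, 5.04 and 7.31 CPM. The other 7 were lower in WT LT at W3.5 than at W2.5, where 47.6% of the 16064 genes were higher at W3.5. They were chosen for a high WT LT W2.5 mean, which favours a fall, so nothing is read from that count. In WT LT W3.5, 6 of the 10 were at 1 CPM or more. None of the 10 kept the 4-fold pattern at W3.5, which 1 of 16199 genes (0.00617%) met there. Of the 10, 9 passed the filter on low counts and could be tested; HORVU3Hr1G029470 did not. The filter asked for about 0.607 CPM in 3 or more of the 12 libraries. HvMADS7, HvMADS8 and HORVU3Hr1G077360 reached it in all 12, whereas the other 6 reached it in no WT HT library, and 4 of them (HORVU2Hr1G083490, HORVU4Hr1G080880, HORVU4Hr1G080890 and HORVU5Hr1G071590) in no mads1 HT library either. Those 6 were thus admitted by the groups where they were high, which favours a difference from WT HT, and the 4 likewise a lower level in HT. Counts over the 9 are therefore a description.

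In mads1 against WT in HT, 4 of the 9 genes were called, against 20.4% of all genes, and 3 of them fell. HvMADS7 read 9.82, 8.63 and 4.10 CPM in mads1 HT, against 18.7, 16.0 and 19.8 CPM in WT HT, and fell by 1.26 log2 units (SE 0.26; edgeR adjusted p = 0.00556). HvMADS8 read 9.75, 9.94 and 7.85 CPM in mads1 HT, against 14.7, 12.1 and 13.4 CPM in WT HT, and fell by 0.53 (SE 0.14; edgeR adjusted p = 0.023). Neither gene's groups overlapped. HORVU4Hr1G080890 had no read in mads1 HT, against 0.180, 0.189 and 0.169 CPM in WT HT, from 9 reads in all. It was at least 2.79-fold lower (floor of 3 counts over the group, edgeR adjusted p = 0.0453). No HT library reached the filter's minimum for this gene. HORVU4Hr1G006100 was called higher, at 0.202, 1.59 and 23.8 CPM in mads1 HT, against 0, 0 and 0.226 CPM in WT HT (edgeR adjusted p = 0.0168), and most of its reads were in the third mads1 HT library. HORVU4Hr1G006100 had passed the filter with no WT HT library at its minimum, which favours a higher level in mads1 HT. The call of HvMADS7 was kept without any 1 library. That of HvMADS8 was lost without the first or the third WT HT or the third mads1 HT library (edgeR adjusted p of 0.0507 to 0.0821), and that of HORVU4Hr1G006100 without the third mads1 HT or any 1 WT HT library (0.0561 to 0.0781). That of HORVU4Hr1G080890 was lost without any 1 of the 6 HT libraries or the second library of either LT group (0.0532 to 0.103), so that 1 to 4 calls were left. HvMADS7 (edgeR adjusted p = 0.25), HvMADS8 (0.725) and HORVU4Hr1G080890 (0.131) were not called with all 24 libraries in the fit, and with 23 HvMADS8 was not (0.305).

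In LT none of the 9 was called between mads1 and WT by edgeR, against 12.1% of all genes, 1 had an unadjusted p under 0.05 (HORVU0Hr1G022690, log2 change -1.65, SE 0.73), and none was called by DESeq2. Without the first mads1 LT library HvMADS8 was called (edgeR adjusted p = 0.0395). HvMADS7 had a log2 difference of 0.18 (95% interval -0.37 to 0.73) and HvMADS8 of 0.25 (-0.07 to 0.57).

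In HT against LT within mads1, 5 of the 9 were called, a share near the 53.1% of all genes. HvMADS7 fell by 1.501 on the log2 scale (edgeR adjusted p = 3.58e-04; SE 0.26) and HvMADS8 fell by 0.80 (SE 0.14; edgeR adjusted p = 5.28e-04), both without overlap of libraries. HORVU4Hr1G080890 had no read in mads1 HT, against 0.965, 0.933 and 0.559 CPM in mads1 LT, and was at least 12.7-fold lower (edgeR adjusted p = 4.10e-04). HORVU4Hr1G080880, the identifier numbered just before it, held 3 reads in all in mads1 HT, against 32 in mads1 LT, a ratio of 0.1001 from pooled reads (95% counting interval 0.0196 to 0.320; edgeR adjusted p = 0.0135). That call was lost without the second mads1 HT library (edgeR adjusted p = 0.0551). Both HORVU4Hr1G080890 and HORVU4Hr1G080880 passed the filter with no HT library at its minimum. That favours a lower level in HT, so these calls are a description. HORVU4Hr1G006100 was called higher, again mostly through the third mads1 HT library, and it reached the filter's minimum in no mads1 LT library. HvMADS7 (edgeR adjusted p = 0.0522) and HvMADS8 (0.244; 0.0748 with 23) were not called with all 24 libraries in the fit.

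In HT against LT within WT, 3 of the 9 were called, against 23.8% of all genes. All 3 fell, and all 3 were among those admitted with no WT HT library at the filter's minimum. That favours a lower level in HT, so these calls and their survival in other fits are a description. HORVU4Hr1G080890 read 0.180, 0.189 and 0.169 CPM in WT HT, against 2.18, 1.22 and 0.678 CPM in WT LT, a log2 change of -2.86 (SE 0.54; edgeR adjusted p = 0.00394), kept in all 20 alternative fits. HORVU0Hr1G022690 fell by 2.49 (SE 0.80; edgeR adjusted p = 0.0397) and HORVU5Hr1G071590 fell by 1.74 (SE 0.58; adjusted p = 0.0485). The call of HORVU0Hr1G022690 was lost without the first or second WT LT, the second mads1 LT or any 1 WT HT library (edgeR adjusted p of 0.056 to 0.14). That of HORVU5Hr1G071590 was lost without the first or the third WT LT, any 1 mads1 LT, or the second or the third WT HT library (0.058 to 0.17), so that 1 to 3 calls were left. HvMADS7 (log2 difference -0.06, SE 0.24) and HvMADS8 (-0.02, SE 0.14) were not called here, whereas HvMADS6 was. With all 24 libraries HORVU0Hr1G022690 (edgeR adjusted p = 0.127) and HORVU5Hr1G071590 (0.423) were not called.

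The genotype by temperature term was called for 3 of the 9, against 11.7% of all genes: HvMADS7 at -1.44 (SE 0.35; edgeR adjusted p = 0.0207), HvMADS8 at -0.78 (SE 0.20; edgeR adjusted p = 0.0269) and HORVU0Hr1G022690 at 3.74 (SE 1.11; edgeR adjusted p = 0.0479). The sign for the SEPALLATA genes was that of HvMADS6. The HvMADS7 call was lost without the second or the third WT LT or the first or the third WT HT library (edgeR adjusted p of 0.0543 to 0.0649). The HvMADS8 call was lost without any 1 WT LT library, the second or the third mads1 LT, or the first or the third WT HT library (0.0545 to 0.0809). The HORVU0Hr1G022690 call was kept only without the third WT LT, the third mads1 LT or the first mads1 HT library, and HORVU4Hr1G006100 joined the calls without the last of these, so that 0 to 4 calls were made. With all 24 libraries in the fit none of the 3 was called (edgeR adjusted p of 0.182 to 0.851), and HvMADS7 and HvMADS8 were not with 23 (0.113 and 0.362).

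The MADS-box list of 12 genes besides HvMADS6 carries names taken from knowledge of the family, which no file or table used here ties to the identifiers. At W2.5 HvMADS3, of the AGAMOUS group that specifies stamens and carpels, came next after HvMADS6, HvMADS8 and HvMADS7. Its cool wild-type mean was 3.13 times that of the highest other group. Its cool wild-type libraries ran from 0.0525 to 2.55 CPM, highest in the second, and overlapped those of mads1 HT at 0.261 to 0.413 CPM. HvMADS1 followed at 2.31 times and HvMADS16, of petal and stamen identity, at 2.15 times. The HvMADS16 libraries of cool wild type ran from 1.36 to 4.49 CPM, again highest in the second. HvMADS5 stood at 1.57 times, and the other 6 were at 1.26 times or less. These values chose HvMADS6, HvMADS7 and HvMADS8, and neither HvMADS7 nor HvMADS8 met the rule without the second cool wild-type library.

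At W3.5 all 12 could be tested. In mads1 against WT in HT, 7 of the 12 were called, against 20.4% of all genes: HvMADS1, HvMADS3, HvMADS7, HvMADS8, HvMADS16 and HvMADS58 fell with HvMADS6, and HvMADS14 rose by 0.40 on the log2 scale (edgeR adjusted p = 0.013). HvMADS3 fell by 1.11 (SE 0.21; edgeR adjusted p = 0.0035), HvMADS58 by 0.99 (SE 0.22; adjusted p = 0.00997) and HvMADS16 by 0.94 (SE 0.21; adjusted p = 0.00993). The median was -0.41, against 0.01 over all genes. With all 24 libraries in the fit 6 of the 7 calls were lost, all but that of HvMADS1 (edgeR adjusted p of 0.0983 to 0.725), and with 23 those of HvMADS3 (0.0609) and HvMADS8 (0.305). In LT, 2 of the 12 were called, a share near the 12.1% of all genes, and both rose, HvMADS58 by 0.87 (edgeR adjusted p = 0.0199) and HvMADS32, whose rice counterpart acts in floral organ identity, by 0.29 (adjusted p = 0.0272); the median was 0.22, against 0.02 over all genes. Both LT calls were lost in the fits with 23 and 24 libraries (edgeR adjusted p of 0.0597 to 0.656), and without any of the 3 WT LT libraries or without the second or the third mads1 LT library, at adjusted p of 0.0553 to 0.127 (edgeR), and that of HvMADS32 also without the second WT HT library (0.0526). HvMADS15 joined the calls without the first mads1 LT or the first or the third mads1 HT library, and HvMADS3, HvMADS8 and HvMADS14 without the first mads1 LT library.

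In HT against LT within mads1, 11 of the 12 were called, against 53.1% of all genes; HvMADS14 rose and 10 fell, with a median of -0.81 against 0.02 over all genes. With all 24 libraries 6 of these calls were lost (HvMADS3, HvMADS7, HvMADS8, HvMADS16, HvMADS18 and HvMADS32; edgeR adjusted p of 0.0522 to 0.244), and with 23 that of HvMADS8. HvMADS15 was the one not called, at -0.21 (edgeR adjusted p = 0.0973; 0.0108 without the first mads1 LT library). Within WT 2 of the 12 were called, below the 23.8% of all genes, and both fell, as HvMADS6 did. They were HvMADS18, by 0.46 (SE 0.08; edgeR adjusted p = 0.00171), and HvMADS34, by 0.70 (SE 0.10; adjusted p = 3.28e-04), a SEPALLATA group gene whose rice counterpart acts early in the inflorescence meristem. The median was 0.01, as over all genes. Neither was called with all 24 libraries (edgeR adjusted p = 0.313 and 0.299). HvMADS6 was thus called lower under warmth in both genotypes in the fit of the 12 W3.5 libraries, as were HvMADS18 and HvMADS34 of the list.

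The genotype by temperature term was called for 6 of the 12, against 11.7% of all genes, all negative as for HvMADS6: HvMADS1, HvMADS3, HvMADS7, HvMADS8, HvMADS32 and HvMADS58, with a median of -0.71 over the 12 against 0.00 over all genes. HvMADS3 (-1.55, edgeR adjusted p = 0.00529) and HvMADS58 (-1.86, edgeR adjusted p = 0.00306) kept the call without any 1 library, but with all 24 libraries in the fit none of the 6 was called (adjusted p of 0.145 to 0.851), and with 23 only HvMADS1 and HvMADS58 were. The terms of HvMADS1 and HvMADS32 were near the threshold, at adjusted p = 0.0421 and 0.0464 (edgeR), and were kept without the third mads1 HT or the first mads1 LT library; of the other 10 libraries, leaving out any 1 ended the HvMADS32 call, and leaving out any 1 but the first mads1 HT ended that of HvMADS1. HvMADS16 joined the calls without the first library of either mads1 group. The terms of HvMADS18 (-0.01) and HvMADS34 (-0.25) were not called.

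**Figure D4:**
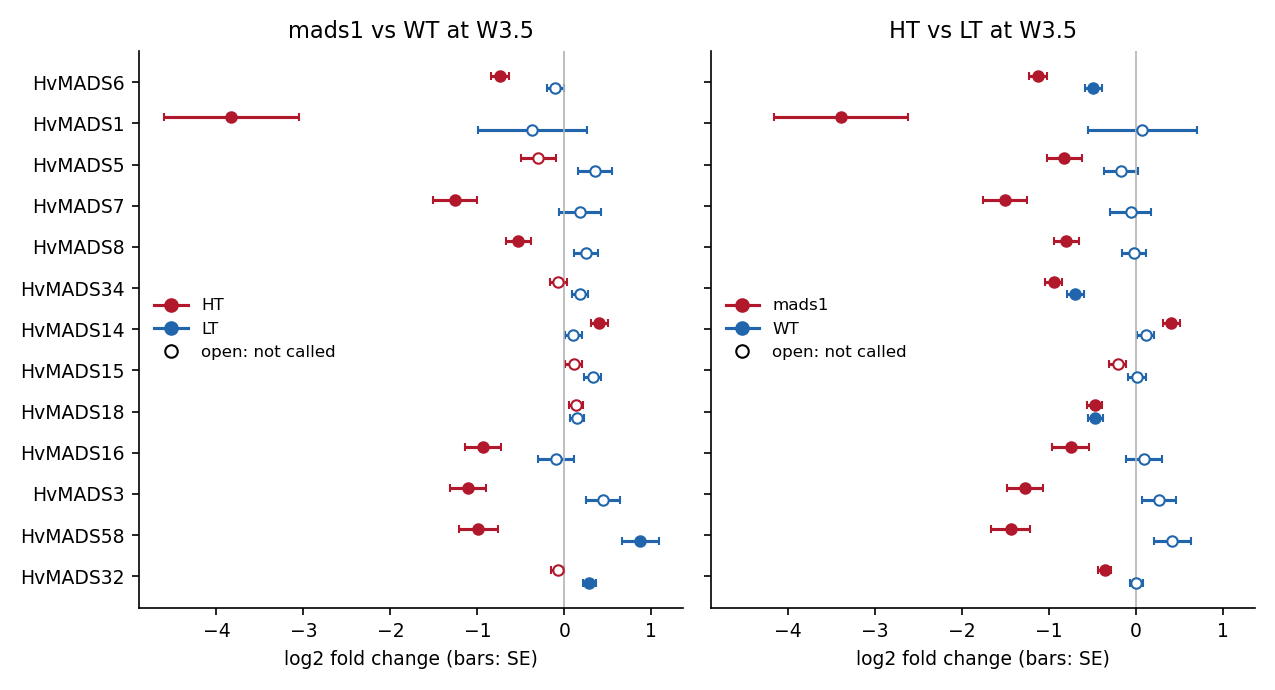
Log2 fold change at W3.5 (horizontal axes, bars are standard errors) of HvMADS6 and the 12 other MADS-box genes listed, for mads1 against WT on the left and HT against LT on the right; filled points were called at adjusted p under 0.05. HvMADS6 lies at -0.74 in HT and -0.10 in LT on the left, and at -1.12 in mads1 and -0.49 in WT on the right.

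The genes whose levels were most like those of HvMADS6 were found by Pearson's r of log2(CPM + 1) over 23 libraries, among 17463 genes with a group mean of at least 1 CPM. They were HORVU2Hr1G017020 (r = 0.970), HORVU3Hr1G077360 (0.964), HvMADS8 (0.960), HORVU0Hr1G032300 (0.9495) and HvMADS32 (0.943). The libraries share the step between stages. The 23 libraries also include the W2.5 libraries by which HORVU3Hr1G077360 and HvMADS8 were chosen for the pattern. Over the 12 W3.5 libraries alone r was 0.742, 0.665, 0.873, 0.862 and 0.589 in the same order. There the 5 genes ranked only 2771, 3669, 1041, 1206 and 4375 among the 17463, so the likeness was not particular to them at W3.5. Of the 5, 3 stayed when r was taken over the 8 group means. HvMADS7 had r = 0.936 and HvMADS5 r = 0.927 over the 23 libraries, whereas HvMADS1 had r = 0.430.

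HORVU2Hr1G017020 averaged 26.2 CPM in mads1 HT W3.5, 34.99 in mads1 LT W3.5, 26.0 in WT HT W3.5 and 37.3 in WT LT W3.5. At W2.5 it averaged 6.15 CPM in mads1 HT, 6.29 in mads1 LT and 7.81 in WT HT, against 16.8 in WT LT. As with HvMADS6 the cool wild-type mean was the highest, by less than the rule asked for, but WT HT was the second highest and not the lowest, and the left-out WT HT library read 26.3 CPM. HORVU0Hr1G032300 was low throughout, at 0.673 to 1.51 CPM in the groups at W3.5, and below the level the rule required in WT LT W2.5, at 0.564 CPM. HvMADS32 averaged 147 to 186 CPM in the groups at W3.5 and 46.4 to 109 CPM at W2.5.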

How the data were processed

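TruSeq RNA v2 libraries were prepared from total RNA, per the labels' protocols. HISAT2 and HTSeq are named in the submitters' processing notes; their versions, the build, the annotation and the strand setting are not given here, so overlapping or near-identical genes are uncertain. Deposited counts are whole reads assigned to each gene, not normalized. The deposited FPKM table, by the authors, holds the same counts per length and library total (largest relative difference on recomputing 9.92e-08), so it is no independent measurement.

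HvMADS6, the pattern rule and all gene lists were chosen with earlier results of these data known. Levels are TMM-scaled CPM with factors from 23 libraries; that of WT HT W2.5 replicate 3 uses factors from all 24. Its highest rank correlation with another library was 0.774, against a lowest of 0.904 among the other 23. Tests used R 4.3.3 and edgeR 4.0.16 on counts of the 12 W3.5 libraries: filterByExpr, TMM, 4 group means, glmQLFit and glmQLFTest, 5 contrasts, Benjamini-Hochberg over 17929 genes, called at adjusted p under 0.05. Standard errors are the change over the square root of F, and 95% intervals use 8 residual degrees of freedom. Counting intervals and floors (3 counts) cover counting error only. Replicates are labelled biological, but the labels do not say how pools were drawn. The p-values set each difference against the spread between these libraries. No pair of replicates was a duplicate: their counts differed 2.56 to 409 times as much as sampling noise allows.

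Named genes were HvMADS6, HvMADS1, the MADS-box list, the pattern genes, those just outside the ratio of 4, and the 5 most like HvMADS6. Alternatives were other scaling, no filter, DESeq2 1.42.0, limma 3.58.1 on log2(FPKM + 1) or log2(FPKM + 0.1), fits with the W2.5 libraries, a replicate block, other forms of the rule, and leaving out each library. Genome coordinates and sequences were not used here.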

Additional observations from a re-analysis of the deposited data

Results flagged for a closer look

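Genes are given here because the effect of mads1 at W3.5 differed between the temperatures by the genotype by temperature term (edgeR, adjusted p under 0.05 over all genes tested). HvMADS6 differed by -0.63 on the log2 scale: the mads1 effect was -0.74 in HT and -0.10 in LT. HvMADS7 differed by -1.44 and HvMADS8 by -0.78. HvMADS1 itself differed by -3.46. HvMADS3 differed by -1.55, HvMADS58 by -1.86 and HvMADS32 by -0.36. HORVU0Hr1G022690 differed by 3.74, the other way: it read 0.269, 1.65 and 1.13 CPM in mads1 HT, against 0.180, 0.316 and 0.226 CPM in WT HT, and 0.114, 0.311 and 0.869 CPM in mads1 LT, against 1.65, 2.15 and 0.436 CPM in WT LT. All 8 values share the third mads1 HT library, which stood apart in HvMADS1. Of 20 alternative fits, the call was lost in 13 for HvMADS32, 12 for HORVU0Hr1G022690, 10 for HvMADS1, 9 for HvMADS8 and 6 for HvMADS7. It was lost in 2 for HvMADS6, 2 for HvMADS3 and 1 for HvMADS58. HORVU0Hr1G022690 also passed the filter with no WT HT library at its minimum.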

How the results depend on the processing

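No called value changed sign in any alternative run. With all 24 libraries in the fit, 3 HvMADS6 calls were lost: mads1 against WT in HT (-0.73), HT against LT in WT (-0.50) and genotype by temperature (-0.64). With 23 libraries 2 were lost: HT against LT in WT (-0.50) and genotype by temperature (-0.61). The cause was not tested; the common dispersion was 0.0190 over 12 libraries, 0.0173 over 23 and 0.0685 over 24. Genes called with 24 libraries numbered 445 for mads1 against WT in LT (2177 over 12 libraries), 1072 in HT (3659), 1130 for HT against LT in WT (4267), 5003 in mads1 (9526) and 277 for genotype by temperature (2100). Of the pattern genes 1 was then called for mads1 against WT in HT, 1 for HT against LT in WT and 0 for genotype by temperature; limma on log2(FPKM + 1) called 2 for mads1 against WT in HT.

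Leaving out 1 library at a time, the HvMADS6 change ran from -0.81 to -0.69 for mads1 against WT in HT, -0.18 to -0.02 in LT, -0.56 to -0.44 for HT against LT in WT, -1.21 to -1.05 in mads1 and -0.71 to -0.55 for genotype by temperature. All genes called ran from 1719 to 5189, 903 to 4609, 2849 to 5075, 8321 to 9615 and 1113 to 2865 in that order. The count for LT was 4609 without the first mads1 LT library and at most 1116 without any 1 other LT library. In HT it was 1719 and 2349 without the first and the third WT HT library and 2419 without the second mads1 HT library. For genotype by temperature it was 1113 to 1234 without the first WT HT, the first or the third WT LT or the second mads1 LT library. Pattern genes called ran from 1 to 4, 0 to 1, 1 to 3, 4 to 6 and 0 to 4. HvMADS6 ratios of WT LT W2.5 ran from 17.6 to 64.0 over mads1 HT, 14.0 to 25.1 over mads1 LT and 80.3 to 134 over WT HT (39.1 with replicate 3 of that group). The pattern held 11 genes, 8 to 12 on leaving out 1 library, 556 with no minimum level, 1 with a minimum of 5 CPM, 5 with a ratio of 8 and 7 with libraries separated as well. Of the 5 genes most like HvMADS6, 3 stayed over the 8 group means and 0 over the 12 W3.5 libraries.

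With the replicate number as a block, the HvMADS6 changes were -0.73, -0.11, -0.49, -1.12 and -0.63 in the order above, with each call as without it, and all genes called numbered 4065, 2620, 4579, 9767 and 2312. Correlations of deviations between same-numbered W3.5 libraries ran from -0.186 to 0.418 over 18 pairs, and 8 of 12 libraries correlated best with their own number. The highest were between mads1 HT and mads1 LT, at 0.418 for replicate 1 and 0.361 for replicate 3. Whether same-numbered libraries share an effect was not tested, so the block is given only as an alternative.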
